A study of Myzus persicae with 4 samples.

Results

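A set of 105 contigs on an aphid expression array was higher with nicotine diet than with control diet in replicates 1 and 3 and near parity in replicate 2. A contig is an assembled transcript sequence, and the array carried probes for 10295 of them, of which 7017 had a probe that could enter the set. The members were picked on the deposited log2 ratios of nicotine over control themselves. A probe was kept if its nicotine channel was well above background on all 4 arrays, its log2 ratio was above 1 (more than a doubling) in replicates 1 and 3, and its ratio in replicate 2 lay between -0.3 and 0.3. This gave 116 of 10369 probes (1.12%), and each contig was then represented by its brightest passing probe. Because the ratios of all 3 replicates chose the members, those ratios are a description here and carry no test.

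The samples were heads of Myzus persicae, named in the study's title as the tobacco aphid, taken 24 h after the aphids had been moved from cabbage to a sucrose diet with amino acids. One group had 250 µM nicotine in the diet and its control group had the same diet without nicotine. Each of 4 two-colour arrays compared RNA of a nicotine sample with that of a control sample, and the titles give 3 biological replicates: arrays 1 and 3 are hybridisations of replicate 1, array 2 is replicate 2 and array 4 is replicate 3. The nicotine sample was labelled with Alexa Fluor 555 in replicate 1 and with Alexa Fluor 647 in replicates 2 and 3, so the members were above 1 in both dye orientations. How many heads were pooled and whether the replicates came from separate cultures is not given in the sources used here. The description field marks array 4, not array 3, as the technical replicate. The members' median ratio was above 1 on arrays 1, 3 and 4 and near 0 on array 2. The rule, which followed the titles, fixed these values, so they do not bear on which array is the repeat.

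Nicotine is an alkaloid that tobacco makes against herbivores, and it acts on insects by opening nicotinic acetylcholine receptors, the ion channels of fast excitatory synapses in their central nervous system. Insects that live on tobacco are known to break it down, with cytochrome P450 monooxygenases among the enzymes that do so. The head holds the brain, sense organs, muscle and fat tissue, so a head extract mixes many cell types, and a change in the number of cells of a type cannot be told apart from a change in RNA per cell. The files do not pair contigs with gene names. None of the 105 identifiers occurs among the 17052 genes of the RefSeq table for this species (assembly MPER_G0061.0), so neither gene functions nor head marker genes could be looked up. Only the 2 members with the largest ratios are printed by identifier, and the rest are described by their values.

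Contig15349 had the largest ratio, as ranked by the lower of its ratios in replicates 1 and 3. Its log2 ratio of nicotine over control was 3.33 on array 1 and 3.26 on array 3 (both replicate 1), 0.21 on array 2 (replicate 2) and 3.12 on array 4 (replicate 3). These are 9.82-fold, 1.15-fold and 8.69-fold in replicates 1, 2 and 3. Its mean log2 ratio was 2.21 ± 1.74 (SD, n = 3 replicates), with replicate 2 far below the others. With nicotine diet its log2 level was 14.43, 10.81 and 13.47 in replicates 1, 2 and 3, against 11.12, 10.61 and 10.36 with control diet. The nicotine level in replicate 2 thus lay close to the control levels, which overlapped none of the nicotine levels of replicates 1 and 3. Levels here are log2 intensities of one channel after normalisation across arrays, and they compare samples for 1 probe, not probes with each other.

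Contig4682 came next, with log2 ratios of 2.70 on array 1, 2.47 on array 3, 0.17 in replicate 2 and 2.84 in replicate 3. Its mean was 1.86 ± 1.48 (SD, n = 3). The log2 level with nicotine diet was 14.29, 11.05 and 13.53 in replicates 1, 2 and 3, and with control diet it was 11.70, 10.88 and 10.69. As for contig15349, the nicotine sample of replicate 2 fell inside the range of the 3 control samples. Each of these contigs had a single probe on the array, and both channels of that probe were well above background on all 4 arrays.

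Over the 105 members the log2 ratio in replicate 1 ran from 1.00 to 3.30 with a median of 1.42, which is 2.67-fold. In replicate 3 it ran from 1.01 to 3.12 with a median of 1.21, or 2.31-fold. In replicate 2 it ran from -0.27 to 0.30 with a median of 0.11, and 71 members were above 0 and 34 below. The middle of all 10369 probes was near 0 in every replicate, with medians of -0.00, -0.00 and -0.04 in replicates 1, 2 and 3. Moderate differences prevailed: 56 of 105 (53.3%) were under 1.5 in both replicates 1 and 3. Ratios of at least 4-fold were measured for 11 members in replicate 1, for 12 in replicate 3 and for 3 in both. Replicate 1 gave the higher ratio for 71 of the 105 members, and the difference of replicate 1 minus replicate 3 had a median of 0.18 and an SD of 0.50 between members.

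**Figure D1:**
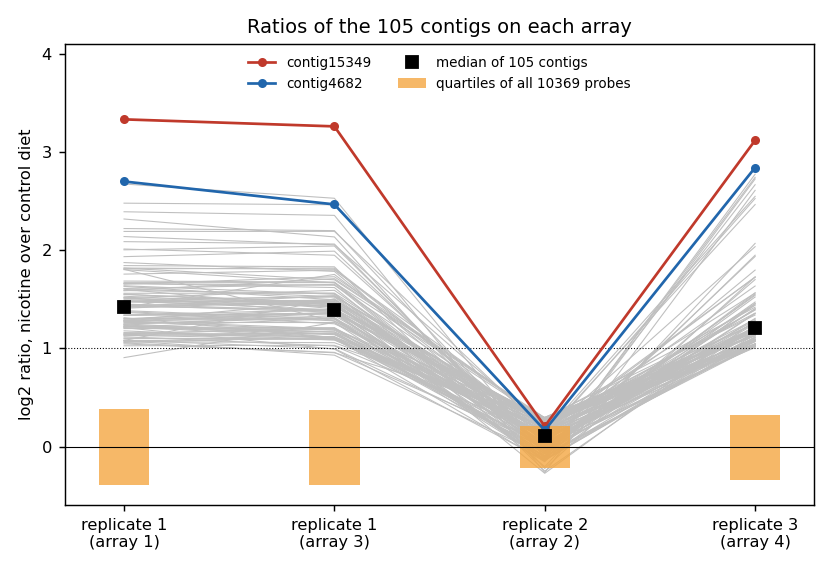
Log2 ratio of nicotine over control diet of the 105 contigs on each array; each grey line is a contig, squares are medians and orange bars span the quartiles of all 10369 probes. Medians were 1.42 and 1.40 on the arrays of replicate 1, 0.11 in replicate 2 and 1.21 in replicate 3, and contig15349 and contig4682 lay on top in replicates 1 and 3 apart from array 3, where contig4682 was passed by another member.

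The technical error of a log2 ratio was described in 3 ways, which are not on a common scale. The difference between the repeat hybridisations of replicate 1 had an SD of 0.12 over the members and of 0.11 over all 10369 probes. The scanner software's own error of a log2 ratio had a median over members between 0.22 and 0.25 on the 4 arrays. Probe pairs of the same contig, 3352 in number over the whole array, gave an SD per probe of 0.22, 0.11 and 0.20 in replicates 1, 2 and 3. The SD between repeat hybridisations is that of a difference of 2 ratios, while the probe-pair SD is for 1 probe. The probe-pair SD also holds differences between the probes of a contig. The smaller of a member's ratios in replicates 1 and 3 exceeded its ratio in replicate 2 by 0.71 to 2.91, with a median of 1.06. The limits of the rule set the lower end of that range and nothing is read from it. Between replicates, the SD of a member's log2 ratio had a median of 0.73 (n = 3), against 0.29 over all probes, which the rule also fixes.

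The limits cut through a continuous distribution. The nearest values inside and outside were 1.00 and 0.98 in replicate 1, 1.01 and 1.00 in replicate 3, 0.297 and 0.302 at the upper limit of replicate 2, and -0.27 and -0.30 at its lower limit. In 61 members at least one of the ratios in replicates 1 and 3 was under 1.2. Among all 279 probes above 1 in replicates 1 and 3 (2.69% of the 10369), the ratio in replicate 2 had a median of 0.26 and quartiles of -0.04 and 0.49. Of these, 116 (41.6%) lay in the flat window, a smaller share than the 64.5% of all 10369 probes. Above 0 lay 200 of the 279 (71.7%). Just above the window, between 0.3 and 0.6, lay 81 probes, and 15 lay just below it between -0.3 and -0.6. In full, 103 lay from 0.3 to 1, 19 above 1 and 41 below -0.3. Contigs flat in replicate 2 were therefore part of one broad peak, and no gap set them apart from contigs that lay slightly above 0.3 there.

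**Figure D2:**
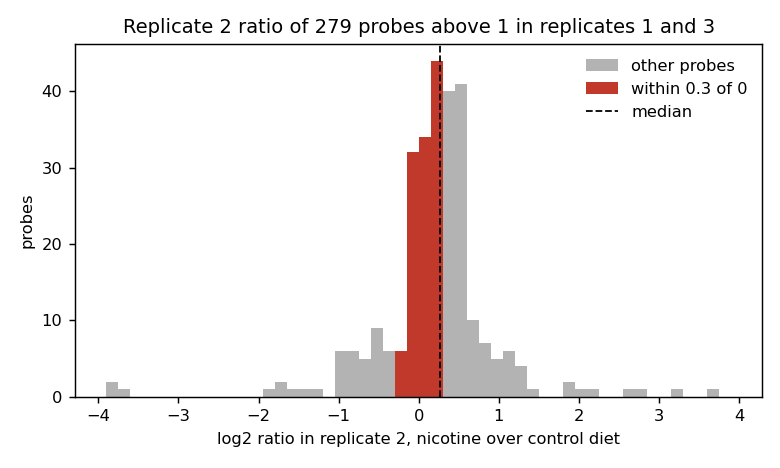
Number of probes by log2 ratio of nicotine over control in replicate 2, for the 279 probes above 1 in replicates 1 and 3. Red marks the 116 probes within 0.3 of 0, and the dashed line is the median of 0.26.

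The same limits applied to the other pairs of replicates found far fewer contigs. Probes raised in replicates 1 and 2 and flat in 3 numbered 6, from 5 contigs (0.0579% of probes), and probes raised in replicates 2 and 3 and flat in 1 numbered 4, from 3 contigs (0.0386%). A ratio above 1 in all 3 replicates was measured for 19 probes from 14 contigs (0.183%). The mirror pattern, lowered in replicates 1 and 3 and flat in 2, was nearly as common, with 94 probes from 79 contigs (0.907%). Replicate 2 had fewer ratios above 1 over the whole array, 260 probes (2.51%) against 616 (5.94%) in replicate 1 and 615 (5.93%) in replicate 3. It also had more flat ratios, 64.5% of probes against 41% and 46.1%. The part of these differences in the size of the set was not tested.

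Levels in each channel are given next as a description. The limits on the ratios fix how far the nicotine level must move against the control level between replicates, and control levels moved by less than 0.5 in 81.7% of all probes, so a lower nicotine level in replicate 2 largely follows from the choice of members. With nicotine diet the members' median log2 level was 12.43, 10.83 and 11.96 in replicates 1, 2 and 3. With control diet it was 10.97, 10.86 and 10.75. The nicotine samples of replicates 1 and 3 were thus high, while the nicotine sample of replicate 2 stood at the level of all 3 control samples. The scaling put the median level of all 10369 probes between 12.04 and 12.08 in each channel and replicate.

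**Figure D3:**
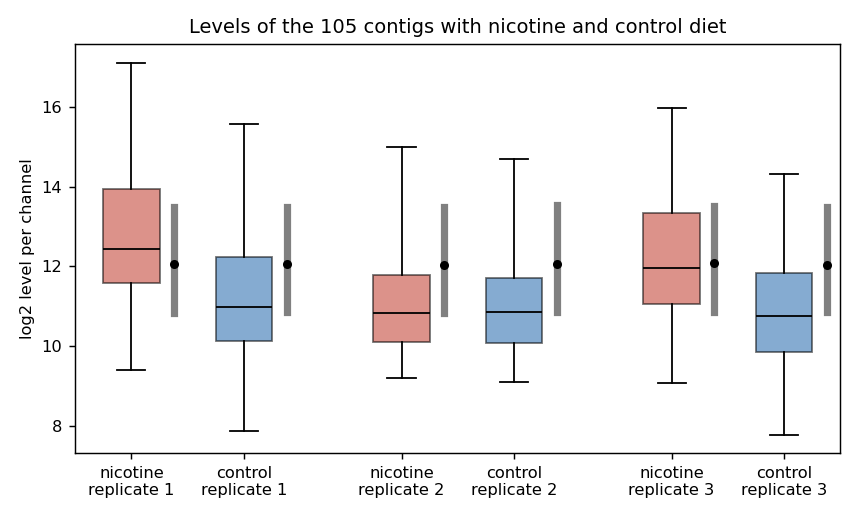
Log2 level of the 105 contigs with nicotine diet (red) and control diet (blue) in each replicate; boxes span the quartiles, whiskers the full range, and the grey bar and dot beside each box give quartiles and median of all 10369 probes. Only the nicotine boxes of replicates 1 and 3, with medians of 12.43 and 11.96, stand above the other 4, whose medians lie between 10.75 and 10.97.

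Contig by contig, the nicotine level in replicate 2 minus its mean in replicates 1 and 3 had a median of -1.25 and quartiles of -1.65 and -1.01. The same difference with control diet had a median of -0.03 and quartiles of -0.15 and 0.13. Over all 10369 probes the median was 0.09 with either diet. The nicotine level of replicate 2 lay below those of both other replicates in 102 of 105 members (97.1%), against 32% of all probes. The control level lay below both in 20 members (19%), above both in 27 (25.7%) and between them in 58. Over all probes it lay below both in 21.8% and above both in 39.9%. It stayed within 0.5 of its mean in replicates 1 and 3 in 82.9% of the members, about the share of all probes. For scale, the repeat hybridisations of replicate 1 differed over the members by an SD of 0.08 in nicotine level and 0.15 in control level. Each replicate has 1 nicotine and 1 control sample, so the level difference between replicates has no test. With no scaling between arrays the nicotine median was -1.40 and the control median -0.16, and with processed signals scaled to their 75th percentile they were -1.55 and -0.22.

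**Figure D4:**
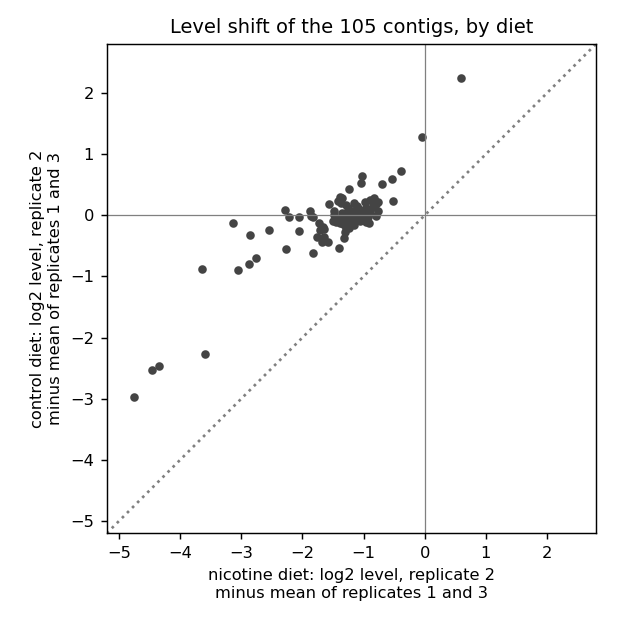
Log2 level in replicate 2 minus the mean of replicates 1 and 3 for each of the 105 contigs, with nicotine diet on the horizontal axis and control diet on the vertical axis; the dotted line marks equal shifts. Most points lie left of 0 at a control shift near 0, around the medians of -1.25 and -0.03, and a few at the lower left were lower in replicate 2 with both diets.

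A smaller group stood out in replicate 3. Sorted by that ratio, the members showed their widest gap between 2.07 and 2.46, with 10 contigs above it and 95 below, a division made after the values were seen. The 10 contigs, contig15349 and contig4682 among them, had a median ratio of 1.56, 0.00 and 2.70 in replicates 1, 2 and 3. The other 95 members had medians of 1.41, 0.12 and 1.19 in the same replicates. The 10 contigs had higher levels in replicate 1 than in replicate 2 with both diets: their median log2 level with nicotine was 15.50, 11.53 and 14.76 in replicates 1, 2 and 3, and with control diet 14.04, 11.63 and 12.11. Control levels in replicate 2 lay more than 0.5 below the mean of replicates 1 and 3 in 7 of the 10 and in 4 of the other 95. By these medians the replicates differed in the control diet as well, with replicate 1 above the other two, but in 1 of the 10 the control levels of replicates 1 and 3 were alike (12.72 and 12.69) and that of replicate 2 lower (11.82). A second probe of that contig read -0.43 and 0.72 in replicates 1 and 3, where the member probe read 2.37 and 2.61. In another of the 10 a second probe read 0.29 and -0.03, against 1.64 and 2.74. The pattern of these 2 contigs thus rests on 1 probe each.

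One member stood apart from the rest. In this contig the nicotine level of replicate 2 was above its mean in replicates 1 and 3, by 0.60, and there the control level was higher by 2.24. Its log2 levels with nicotine were 12.18, 11.65 and 9.93 in replicates 1, 2 and 3, against 10.44, 11.70 and 8.47 with control diet. Its control channel was not well above background on array 4, so the control level of 8.47 and the difference of 2.24 that rests on it are uncertain. A second probe of this contig had log2 ratios of 1.08, -0.61 and 1.12 in replicates 1, 2 and 3. The member probe had 1.73, -0.05 and 1.47, so the second probe was not flat in replicate 2.

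The 79 contigs of the mirror pattern, chosen for ratios of the opposite sign, had the opposite shift with nicotine. Their nicotine level in replicate 2 minus its mean in replicates 1 and 3 had a median of 1.00. It was positive in 77 of 79, against 5943 of all 10369 probes. With control diet the median difference was -0.26, and 43 of 79 (54.4%) stayed within 0.5 of 0, against 87 of the 105 raised members (82.9%). The difference between the sets was not tested.

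A second probe bore on 52 members, whose contigs had 2 probes that could enter. In 11 of these both probes passed all limits. In the other 41 the second probe failed at least one limit, and its median log2 ratio was 0.95, 0.09 and 0.94 in replicates 1, 2 and 3, against 1.41, 0.13 and 1.17 for the member probes of the same contigs. It was above 0 in both replicates 1 and 3 for 34 of the 41, above 0.5 for 27 and above 1 for 10. In 7 contigs it was below 0 in at least one of these replicates, with lows of -0.80 in replicate 1 and -0.50 in replicate 3. In replicate 2 it lay between -0.61 and 0.54, within 0.3 of 0 for 26. Probes of a contig share its RNA, arrays and contrast, so this is a check of the probes and not of the replicates. For 48 members the array had no second probe.

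**Figure D5:**
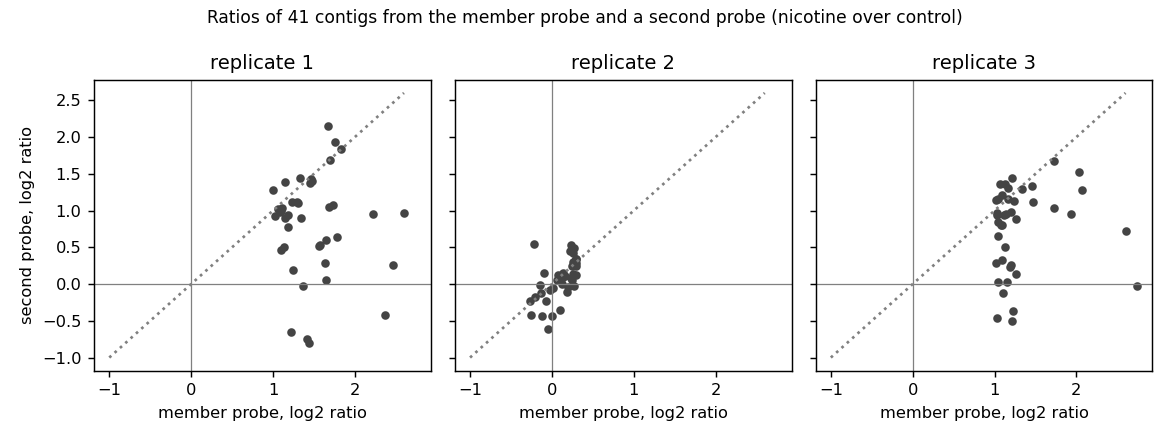
Log2 ratio of nicotine over control from the member probe (horizontal axis) and from the second probe (vertical axis) of 41 contigs in each replicate; the dotted line marks equal values. Second probes had medians of 0.95 and 0.94 in replicates 1 and 3 and 0.09 in replicate 2, and a few lay below 0 in replicates 1 and 3.

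Member probes lay across the whole array, with 25 of 2574, 29 of 2598, 31 of 2600 and 31 of 2597 probes in 4 blocks of rows from top to bottom. By columns, 68 of 5208 lay on one side and 48 of 5161 on the other. They were unevenly spread by level. In 4 groups of probes from low to high control level in replicate 2, members were 2.16%, 1.43%, 0.694% and 0.193%. The lowest group held 56 of 2593 and the highest 5 of 2592. Probes above 1 in replicates 1 and 3, at any ratio in replicate 2, also fell, from 127 to 80, 48 and 24. The reason for this was not tested.

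The filter on dim probes bears on the set as well. Among the 4065 contig probes whose nicotine channel was not well above background on some array, 99 (2.44%) also met the ratio limits, and all 99 were dim with nicotine on array 2. On array 2, 73.7% of contig probes were above background with nicotine and 77.5% with control diet, against 86.1% to 88% and 78.7% to 79.7% on the other arrays. The part of this lower share in the flat ratios of replicate 2 was not tested. Among members, 102 of 105 had a control channel above background on every array. In the other 3 the ratio is uncertain where the control channel was dim. No member spot was saturated, and all arrays came from 1 slide and 1 scan day.

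Across all 10369 probes limma's moderated test called 0 probes (0%) at an adjusted p of 0.05. The smallest adjusted p in limma was 0.26, and 1804 probes (17.4%) had an unadjusted p under 0.05. None of the 116 member probes was called, and 87 were under that unadjusted level, which the choice of members on the same ratios brings about. With the dye term the test has 1 residual degree of freedom, so the lack of calls does not show that no transcript responded. It also rests on the titles: with array 4 as the repeat of array 1, as the description field could be read, a fit called 4237 probes, all 116 member probes among them. That fit gave the mean of arrays 1 and 4 the dye code of array 1. Their dye orientations were opposite, so the dye term did not match the labelling and the count is not reliable. Over all probes the log2 ratio of array 1 minus array 3 had an SD of 0.11. For replicate 1 minus replicate 3 (array 4) the SD was 0.58. Arrays 1 and 3 share a dye orientation and array 4 has the opposite one. A dye effect therefore cannot be told apart here from a difference between samples, and these SDs do not settle which array is the repeat.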

How the data were processed

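The authors deposited a table of log2 ratios per spot, Alexa Fluor 647 (red) over Alexa Fluor 555 (green); the submitters' processing notes name limma without steps. Scale and direction were found against the scanner ratios (r between 0.958 and 0.969, slopes between 0.803 and 0.851), and column medians lay between -0.013 and -0.0005; the exact centring stays unknown. The scanner files, which their headers credit to version 10.1.1.1 of Agilent Feature Extraction, hold deposited median spot and background intensity values, processed intensity values, and the log10 ratio with its error, per the file headers.

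Ratios of arrays 1 and 3 were turned to read nicotine over control and averaged to 1 replicate, following the titles. Levels per channel came from spot medians with normexp (offset 50), loess and Aquantile in limma 3.58.1 under R 4.3.3. The limma fit had nicotine and dye coefficients with Benjamini-Hochberg adjustment, was two-sided, and was checked on simulated data. At the noise of these data the check covered the size of coefficients and false calls. That changed probes be called was required only at a much lower noise. With the dye term replicate 1 is fitted exactly, so the residual spread is that between replicates 2 and 3, moderated over all probes. The p-values of the fit measure only that spread. Members, lists and tests were chosen with earlier results of these data known. The naming rule took the 2 members with the largest lower ratio of replicates 1 and 3, because the contigs have no names in the sources used here. Precision is limited by the number of arrays. Alternatives covered the values, limits, filters, probes, scaling, dye term, array pairing and each replicate left out. Figures used matplotlib 3.10.9 under Python 3.11.15.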

Additional observations from a re-analysis of the deposited data

How the results depend on the processing

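The 105 contigs became 104 with normexp and loess ratios (103 shared) and 124 with Agilent's processed ratios (99 shared). Other limits gave 208 above 0.8 and 46 above 1.2 in replicates 1 and 3, and 69 within 0.2 and 158 within 0.5 of 0 in replicate 2. It was 192 with no filter on dim probes and 64 where every probe of a contig had to pass, by construction. Without replicates 1, 2 and 3 the remaining limits gave 196, 232 and 246 contigs. The members' median ratios moved most in replicate 3, from 1.21 as reported to 1.29 with Agilent's processed ratios. Every move was below the SD of the medians between replicates, 0.70. The rule for members makes that SD large, so the comparison cannot judge how stable the medians are. The members' control level in replicate 2 minus replicates 1 and 3, -0.03 as reported, was -0.22 with processed signals scaled to the 75th percentile, -0.16 with no scaling between arrays, 0.14 without replicate 1 and -0.16 without replicate 3. The nicotine difference stayed between -1.55 and -1.06. The limma count of 0 became 4237 with array 4 as the repeat of array 1 and 3115 with 4 independent arrays; it stayed at 0 in the other 6 alternatives. Of the member probes 116 and 66 were called in those fits, which treat arrays 1 and 3, hybridised from the same replicate by title, as separate samples. The fit with 4237 calls also gave the mean of arrays 1 and 4, labelled in opposite dye orientations, the dye code of array 1. At an unadjusted p under 0.05, fitted with no dye term, there were 2088 probes with all replicates, and 702, 3319 and 861 without replicates 1, 2 and 3. Without replicate 2 the smallest adjusted p in limma was 0.05, at the threshold, so that count of 0 is a near miss. In the other alternatives with 0 calls the smallest adjusted p in limma was between 0.22 and 0.54. Beyond construction the cause was not tested. Both diets share each array, so every ratio is already paired and the fit on these ratios was a paired analysis of 1 group of ratios.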
